A study of Mus musculus with 8 samples.

Results

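Genes of leukotriene and prostaglandin synthesis were followed across the arrays: Alox5, Alox5ap, Ltc4s, Lta4h, Alox12, Alox15, Ptgs1 and Ptgs2. They are 8 of the 20887 genes with a probe, and 6 of them were among the 13182 genes tested. They were taken by gene symbol, and Alox5 was chosen by its measured signal, for its rise with JAK2V617F in LSK cells. Its values in that contrast, and in the contrasts that contain it, are therefore given as a description without a test.

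Marrow was of 4 genotypes: JAK2V617F;Ezh2flox/flox;Cre-ERT2 (called double mutant after deletion), JAK2V617F;Cre-ERT2 (JAK2V617F), Ezh2flox/flox;Cre-ERT2 (Ezh2-deleted) and Cre-ERT2 alone (WT). All 4 were C57BL/6, all carried Cre-ERT2, and all were grafted into CD45.1+ wild-type hosts after lethal irradiation. Ezh2 was deleted 4 weeks after transplantation and cells were sorted at 2 months. Megakaryocyte and erythroid progenitors (MEP) and Lineage-negative, c-Kit+ Sca-1+ cells (LSK, the fraction that holds the stem cells) were each hybridized on 1 array per genotype, 8 arrays in all. No group has a replicate, and the spread behind each test is that between matched pairs of arrays. limma moderates it toward the spread of all genes tested. The labels do not say how many animals gave each sample.

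Arachidonic acid is released from membranes by phospholipases and then oxidized along competing routes. The 5-lipoxygenase Alox5, helped by the membrane protein Alox5ap (FLAP), makes leukotriene A4, which Lta4h turns into the neutrophil attractant leukotriene B4 and Ltc4s into the cysteinyl leukotriene C4. The cyclooxygenases Ptgs1 and Ptgs2 make the precursor of prostaglandins and of thromboxane, Ptgs1 being the enzyme of platelets and Ptgs2 the inducible one, while Alox12 and Alox15 are lipoxygenases best known from platelets and from macrophages and eosinophils.

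The promoters of Alox5, Ptgs1 and Ptgs2, the matched members on which the results turn, are shown, from RefSeq on build GRCm38.p6, each with 250 bases before and 50 after the start of the gene. Promoters of 6 of the 8 members were matched. Capitals mark GC boxes (GGGCGG) and, in Ptgs2, a CRE core (CGTCA) that overlaps an E-box (CACGTG).
Alox5, chr6:116461129-116461428, minus strand: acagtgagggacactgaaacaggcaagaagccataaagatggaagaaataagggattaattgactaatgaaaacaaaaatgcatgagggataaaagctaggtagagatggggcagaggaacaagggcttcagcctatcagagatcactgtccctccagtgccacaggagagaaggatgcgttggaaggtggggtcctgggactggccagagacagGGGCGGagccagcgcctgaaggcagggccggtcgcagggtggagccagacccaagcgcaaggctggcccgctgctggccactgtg
Ptgs1, chr2:36230176-36230475, plus strand: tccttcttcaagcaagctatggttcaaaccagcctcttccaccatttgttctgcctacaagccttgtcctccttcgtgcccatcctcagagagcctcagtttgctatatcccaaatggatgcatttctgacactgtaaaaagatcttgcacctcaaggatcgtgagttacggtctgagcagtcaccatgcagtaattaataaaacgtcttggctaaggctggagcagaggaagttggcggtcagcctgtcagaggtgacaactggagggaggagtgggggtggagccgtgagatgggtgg
Ptgs2, chr1:150099781-150100080, plus strand: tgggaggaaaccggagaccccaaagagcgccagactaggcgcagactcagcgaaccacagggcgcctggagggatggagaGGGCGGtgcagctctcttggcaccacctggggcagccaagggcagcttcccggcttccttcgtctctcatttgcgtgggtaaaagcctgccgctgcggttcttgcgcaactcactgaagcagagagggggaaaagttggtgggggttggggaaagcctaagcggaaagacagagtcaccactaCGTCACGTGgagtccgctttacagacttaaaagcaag
On either strand, GGGCGG occurred in 35.7%, CACGTG in 7.15% and CGTCA in 20.8% of 32851 promoters of this length. The letters TTCNNNGAA, the core that STAT factors bind, occurred in 8.3% of them and in none of the 6 windows.

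Levels are log2 signal over the 75th percentile of the array, and they are compared between arrays for 1 probe at a time. Between 39.8% and 48.8% of the probes of an array were well above background, and no member was saturated. Erythroid markers summed to 329 to 525 on the MEP arrays and 29.4 to 249 on the LSK arrays, and stem cell markers to 19.5 to 37.6 on the MEP arrays and 75.4 to 157 on the LSK arrays, in units of the 75th percentile. The Ezh2 probe read 3.36 to 4.04 on arrays of deleted and 3.50 to 4.23 on arrays of intact marrow, and since its position relative to the deleted exons was not used here, it checks nothing. Xist was at 1.57 to 2.99 with Ezh2 deleted and at most -3.07 with Ezh2 intact, while the Y-linked Eif2s3y was below background with Ezh2 deleted and at 2.53 to 3.55 with Ezh2 intact, so Ezh2 status and the sex of the marrow cannot be told apart. In bulk cells, fewer cells of a type and less RNA per cell cannot be told apart.

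Alox5, on chromosome 6, is the member chosen for its rise with JAK2V617F in LSK cells, so a large difference there was built in. In MEP the fitted JAK2V617F change was 1.35 for Alox5 and -1.22 for Ptgs1 (log2). In LSK cells its level was 2.93 in double mutant, 2.23 in JAK2V617F, -0.35 in Ezh2-deleted and -0.88 in WT cells. In MEP it was 2.38 in double mutant, 2.92 in JAK2V617F, 0.97 in Ezh2-deleted and 1.62 in WT cells. In each cell type both arrays with JAK2V617F were above both arrays without it.

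Ranked from high to low, the levels ran double mutant LSK, JAK2V617F MEP, double mutant MEP, JAK2V617F LSK, WT MEP, Ezh2-deleted MEP, Ezh2-deleted LSK and WT LSK. Double mutant LSK and JAK2V617F MEP were 0.01 apart and double mutant MEP and JAK2V617F LSK 0.15, both within the scanner's error for such a gap (0.20). The other gaps were 0.53 or more and exceeded it. That error covers the spot alone and no variation between animals.

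**Figure D1:**
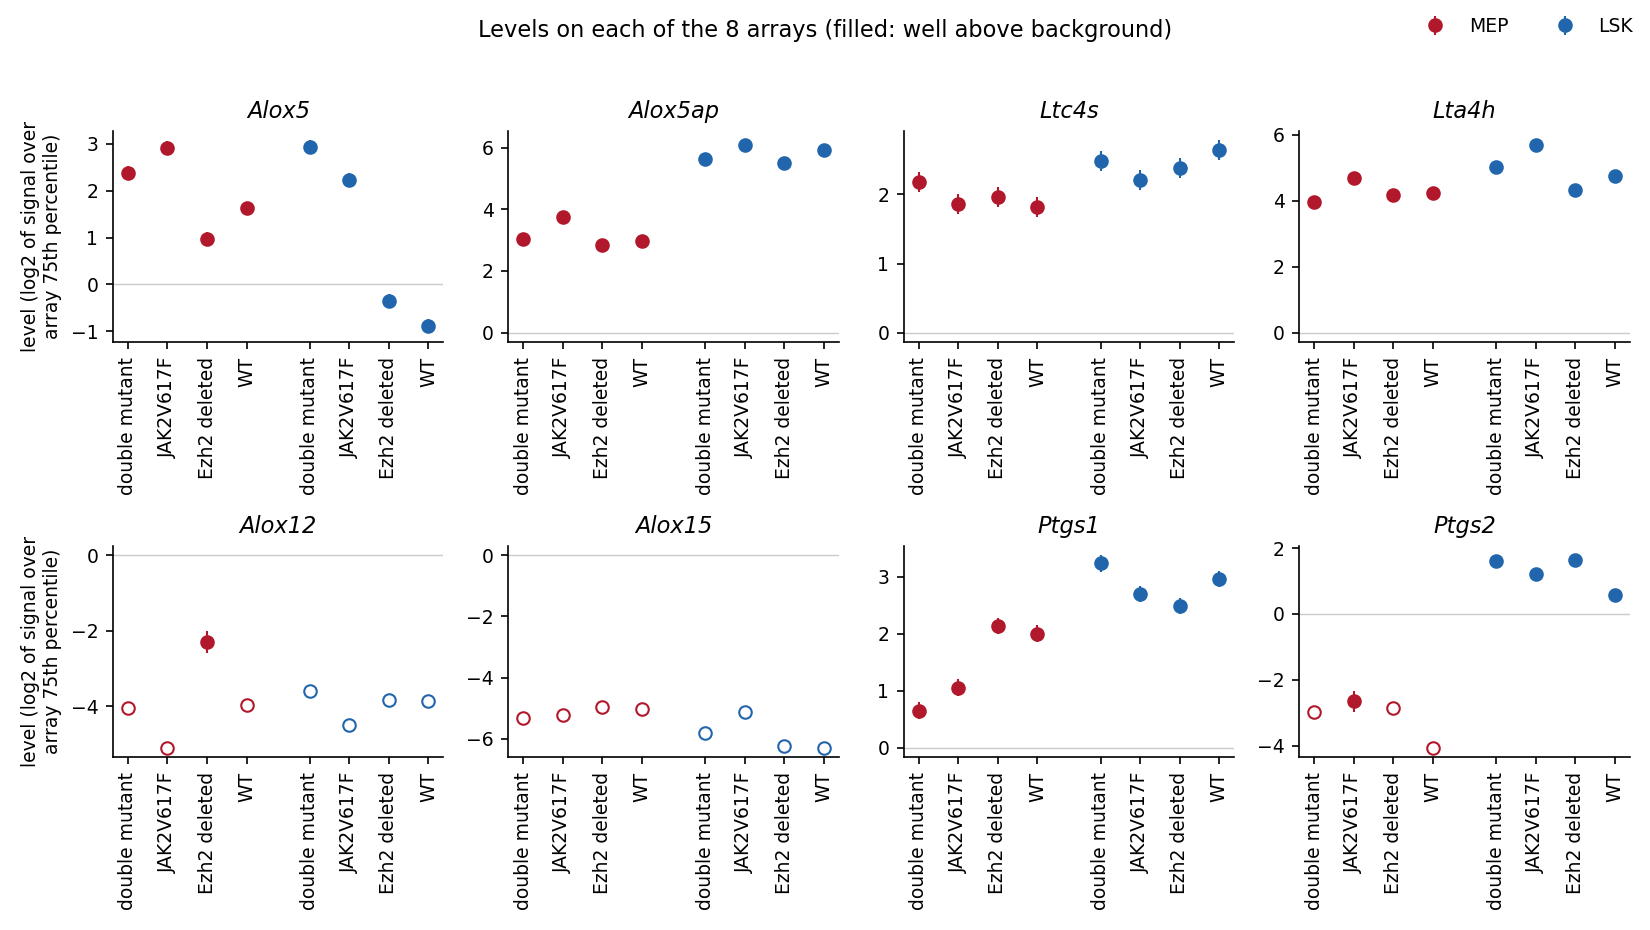
Level of each of the 8 genes (y, log2 of signal over the array's 75th percentile, a separate scale for each gene) on the 8 arrays (x, MEP in red to the left of LSK in blue). Filled points are well above background, bars are the scanner's error of the spot, and the Alox5 points of JAK2V617F and double mutant cells lie at 2.23 to 2.93, above all arrays without JAK2V617F.

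In LSK cells Alox5 was 9.69-fold higher in double mutant than in Ezh2-deleted cells and 8.63-fold higher in JAK2V617F than in WT cells, the contrast it was chosen by. The MEP arrays were not used to choose it. The fit pools its spread over both cell types, however, so the SE and p-values below also draw on the LSK arrays. In MEP Alox5 was 2.65-fold higher in double mutant than in Ezh2-deleted cells and 2.45-fold higher in JAK2V617F than in WT cells. The fitted MEP difference was 1.35 ± 0.21 (log2, SE, 2 pairs), with a limma adjusted p of 0.106 over all genes, so it was not called. It was called with normexp background correction (adjusted p = 0.0387), with genes above background on all arrays alone (0.0149) and with a variance trend (0.0292), and its adjusted p ranged from 0.0149 to 0.328 over all settings.

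The summed signal of neutrophil markers was higher with JAK2V617F within each cell type, as Alox5 was. The 10 neutrophil markers summed to 1106 in double mutant and 2954 in JAK2V617F LSK, against 560.2 in Ezh2-deleted and 815 in WT LSK. In MEP they summed to 324 in double mutant and 178 in JAK2V617F cells, against 51.0 in Ezh2-deleted and 24.9 in WT cells. All 10 were above background in LSK with JAK2V617F, 10 in Ezh2-deleted and 7 in WT LSK, and 9 on every MEP array. With Ezh2 deletion the sum ran the other way from Alox5 in all 4 pairs, lower in LSK and higher in MEP. Its members were not alike in LSK. Mpo, Ctsg, Elane and Prtn3 were lower with Ezh2 deletion in both pairs, while S100a8, S100a9 and Camp were higher in both, as Alox5 was. Ngp, Ltf and Mmp8 differed between the pairs. In MEP S100a8, S100a9 and Camp were also higher with Ezh2 deletion in both pairs, while Alox5 was lower in both. The part of these markers in the Alox5 difference was not tested.

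Between the cell types the neutrophil markers differed among themselves. Mpo and Ctsg, enzymes of primary granules, made up 88.1% to 93.9% of the sum in LSK and 26.2% to 38.5% in MEP. Mpo read 2.35 in WT MEP against 9.12 in WT LSK, and Ctsg 0.50 against 7.70, while Alox5 read 1.62 against -0.88. The calprotectin subunits ran in the direction of Alox5, S100a8 at 1.57 in WT MEP against 0.29 in WT LSK and S100a9 at 3.16 against 1.48. So did Camp, a peptide of secondary granules, at 0.74 against -0.97, and Ngp and Ltf, of the same granules, were above background in WT MEP and not in WT LSK.

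The 10 mast cell and basophil markers with a probe, of 11 listed, stand for another lineage that uses Alox5. They summed to 56.0 and 71.4 in LSK with JAK2V617F and 31.7 and 38.7 without it. In MEP that sum was 15.9 and 37.1 with JAK2V617F and 22.0 and 25.6 without it, so that the ranges overlapped. The transcription factor Gata2, which MEP use as well, made up 75.5% to 92.7% of it in MEP. Fcer1a, the receptor chain that binds IgE, read 0.02 in double mutant and 0.81 in JAK2V617F MEP, against -2.10 in Ezh2-deleted and -2.14 in WT MEP. Hdc, which makes histamine, read -0.38 in double mutant and 0.58 in JAK2V617F MEP and was below background in Ezh2-deleted and WT MEP. Other markers of the list did not all follow. Tpsb2 read 0.42 in double mutant and -1.32 in JAK2V617F MEP, against -1.44 in Ezh2-deleted and -1.56 in WT MEP. Cpa3 read -0.90 in double mutant and 0.37 in JAK2V617F MEP, against -0.22 in Ezh2-deleted and -0.03 in WT MEP. Mcpt8 was above background in WT MEP alone among the MEP arrays, at 0.28, and Mcpt4, Cma1 and Prss34 on no MEP array. Ms4a2, a receptor subunit of mast cells, was below background on all 8 arrays. The single markers given here were chosen after their values were seen, and their part in the Alox5 difference was not tested.

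**Figure D2:**
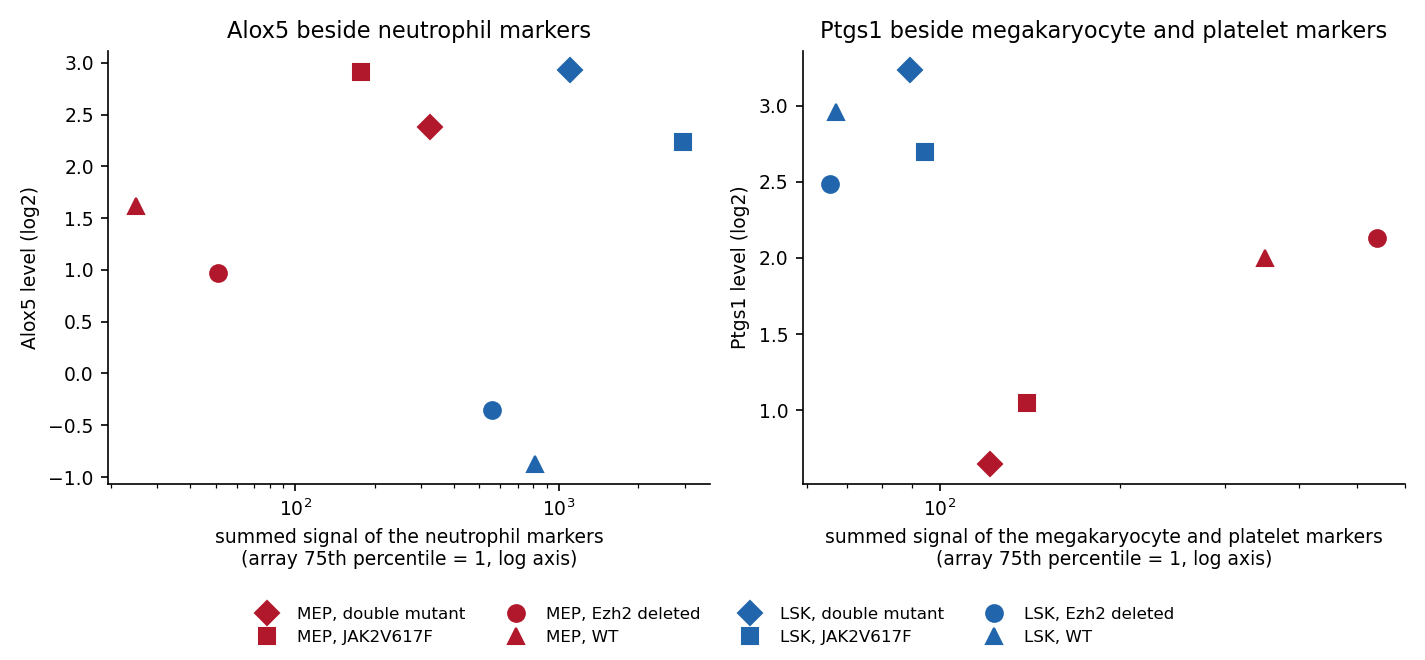
Left, Alox5 level (y, log2) against the summed signal of 10 neutrophil markers (x, log axis, the array's 75th percentile is 1). Right, Ptgs1 level against the summed megakaryocyte and platelet markers. Each point is 1 of the 8 arrays, MEP in red and LSK in blue. Within each cell type the arrays with JAK2V617F have more Alox5 and more neutrophil marker signal, and the 2 MEP arrays with JAK2V617F have the least Ptgs1.

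Among the 10465 other genes well above background on all 8 arrays, as Alox5 was, the 5 whose pattern lay nearest to it were Nupr1, Chil3, Ehd3, Clca3a2 and Emilin2. Likeness was the root mean square difference of levels after each gene's own mean was subtracted, and it was 0.65 for Nupr1, a stress-induced chromatin factor, and 0.71 for Chil3, a chitinase-like protein of myeloid cells. For Ehd3 it was 0.73, for Clca3a2 0.75 and for Emilin2 0.76. The median over these candidates was 1.35, and the spread of Alox5 around its own mean was 1.36. Of the members, Lta4h lay at 1.33, Ltc4s at 1.51, Ptgs1 at 1.85 and Alox5ap at 2.17.

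**Figure D3:**
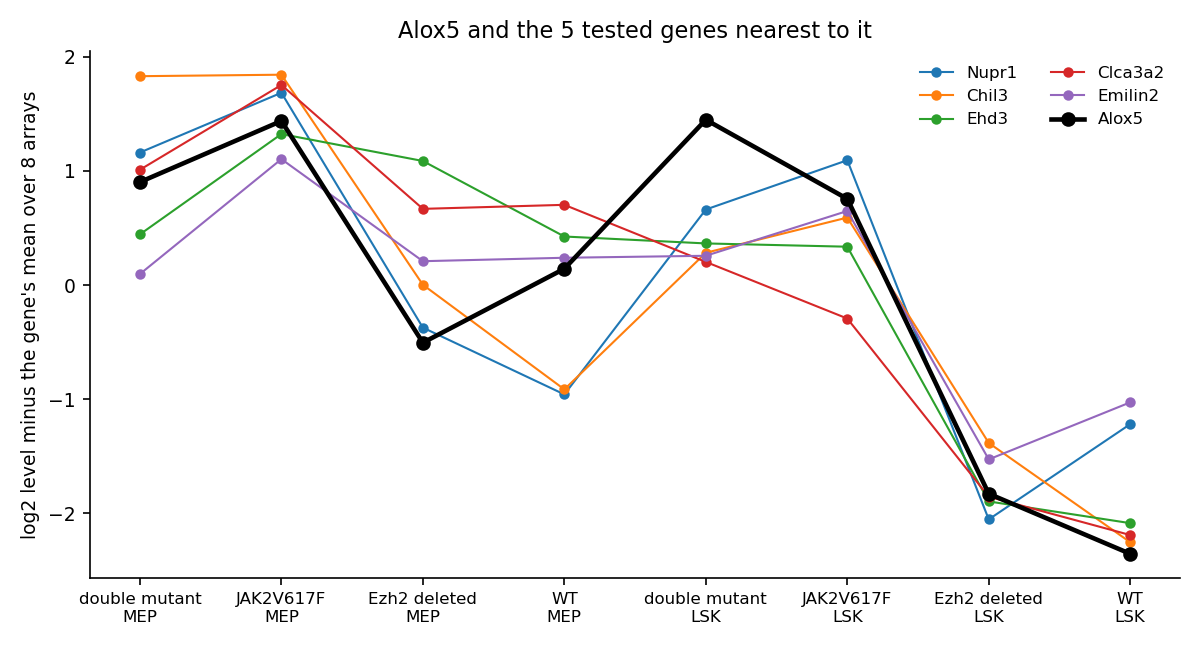
Levels of Alox5 (black) and of the 5 genes nearest to it among those above background on all arrays (y, log2 level minus the gene's mean over 8 arrays) on each array (x). All 6 genes are below their own mean in both LSK arrays without JAK2V617F and above it in both MEP arrays with JAK2V617F. The 5 genes were picked for likeness to Alox5 on these same arrays, so the shared pattern follows from the choice.

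Alox5ap, which presents arachidonic acid to Alox5, on chromosome 5, was higher in LSK than in MEP whatever the genotype. It was well above background on all 8 arrays. Its level in MEP was 3.02 in double mutant, 3.75 in JAK2V617F, 2.85 in Ezh2-deleted and 2.97 in WT cells. In LSK it was 5.64 in double mutant, 6.09 in JAK2V617F, 5.51 in Ezh2-deleted and 5.94 in WT cells. The groups did not overlap, and the level was 6.27-fold lower in MEP (log2 change -2.65 ± 0.17 SE, 4 pairs, limma adjusted p = 2.4e-05).

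Lta4h, the hydrolase on chromosome 10 that makes leukotriene B4, was lower in MEP by a smaller amount. Its level in MEP was 3.97 in double mutant, 4.67 in JAK2V617F, 4.19 in Ezh2-deleted and 4.24 in WT cells. In LSK it was 5.03 in double mutant, 5.68 in JAK2V617F, 4.32 in Ezh2-deleted and 4.74 in WT cells. JAK2V617F MEP lay above Ezh2-deleted LSK, so the groups overlapped, and the fitted fall was 1.60-fold (limma adjusted p = 0.0359). That call was lost when any 1 of 7 of the 8 arrays was left out, with adjusted p up to 0.104, and with a common floor (0.0510).

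Ltc4s, the synthase on chromosome 11 that makes leukotriene C4, stayed within a narrow range. It was 2.18 in double mutant, 1.86 in JAK2V617F, 1.97 in Ezh2-deleted and 1.82 in WT MEP, against 2.48, 2.21, 2.38 and 2.64 in the same genotypes of LSK. Every MEP array was below every LSK array, yet the nearest 2 arrays differed by 0.03, within the scanner's error. The fitted change was -0.47 ± 0.17 (log2, SE) with a limma adjusted p of 0.0563. It was called under 4 settings and without the double mutant MEP array (adjusted p = 0.0420).

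Ptgs1, the cyclooxygenase on chromosome 2, was lowest in MEP that carried JAK2V617F. Its level in MEP was 0.65 in double mutant, 1.05 in JAK2V617F, 2.13 in Ezh2-deleted and 2.00 in WT cells. In LSK it was 3.23 in double mutant, 2.70 in JAK2V617F, 2.48 in Ezh2-deleted and 2.96 in WT cells. All MEP arrays were below all LSK arrays, and the level was 2.61-fold lower in MEP (log2 change -1.39 ± 0.33 SE, limma adjusted p = 0.0131).

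Ptgs2, the inducible cyclooxygenase on chromosome 1, was read by 10 spots of 1 probe on each array. In LSK it was well above background on all 4 arrays, at 1.60 in double mutant, 1.20 in JAK2V617F, 1.64 in Ezh2-deleted and 0.59 in WT cells, with an SD between spots of 0.06 to 0.08. In MEP 4 of 10 spots were well above background in double mutant, 5 in JAK2V617F, 1 in Ezh2-deleted and 0 in WT cells, and the probe, which counted as above background from 5 spots up, was so on the JAK2V617F array alone. Ptgs2 was at least 16.2-fold lower in MEP (limma adjusted p = 1.9e-05). It passed the filter through its LSK arrays, so a difference between the cell types was built into its being tested.

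**Figure D4:**
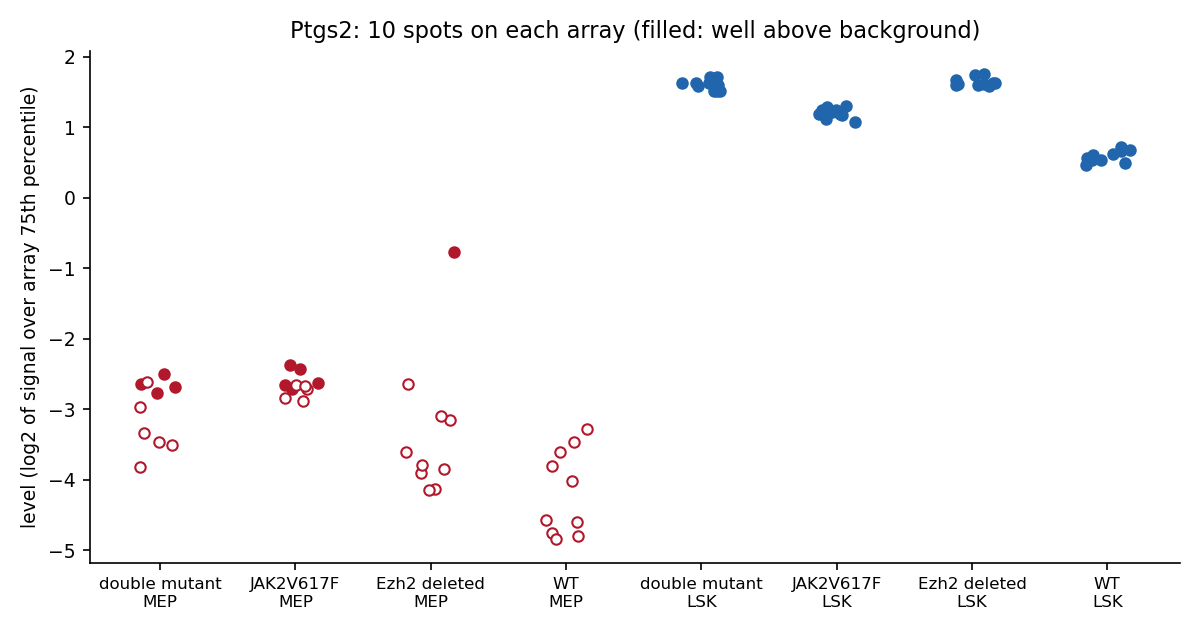
Level of each of the 10 Ptgs2 spots (y, log2 of signal over the array's 75th percentile) on the 8 arrays (x, MEP in red to the left of LSK in blue), filled where well above background. All 40 LSK spots are filled, and in MEP 1 spot of the Ezh2-deleted array, at -0.78, lies apart from its other 9.

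The other lipoxygenases were near the limit of detection and were not tested. Alox12, on chromosome 11, had 2 probes, of which the brighter was well above background on the Ezh2-deleted MEP array alone, at -2.30, and the other on 0 arrays. Alox15, on the same chromosome, was well above background on 0 of 8 arrays.

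Between MEP and LSK, 4 of the 6 members tested were lower and 0 higher in MEP, and all 6 had an unadjusted limma p under 0.05. Of the 4, Ptgs2 passed the filter through its LSK arrays, and the Lta4h call was lost on leaving out each of 7 arrays in turn. Over all 13182 genes, 20.1% were lower and 19.9% higher, and 50.6% had an unadjusted p under 0.05. Alox5 ran the other way with 0.99 ± 0.42 (log2, SE) and a limma adjusted p of 0.0941. That SE and its p-values here draw on the LSK arrays by which Alox5 was chosen, so they are not independent of that choice. The same holds for its tests of Ezh2 deletion and of the interaction. The Alox5 difference between the cell types varied with genotype, on arrays that include those used for the choice. MEP was 5.65-fold above LSK in WT, 2.50-fold in Ezh2-deleted and 1.60-fold in JAK2V617F cells, and 1.46-fold below it in double mutant cells. Its call depended on the setting: leaving out the double mutant LSK array gave an adjusted p of 0.0239, leaving out the double mutant MEP array 0.0466, a variance trend 0.0474 and the strict filter 0.0241.

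JAK2V617F gave no call among the other members. Averaged over both cell types, 0 of 5 were called by limma and 0 had an unadjusted p under 0.05, against 0.326% called and 10.8% unadjusted over all genes. The fitted changes were 0.47 for Lta4h, 0.47 for Ptgs2, 0.31 for Alox5ap, -0.02 for Ltc4s and -0.49 for Ptgs1, and that of Alox5 was 2.27.

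Within LSK, 0 of the 5 were called by limma and 1 had an unadjusted p under 0.05, against 0.174% and 17.6% of all genes. That was Lta4h, which was 0.71 higher in double mutant than in Ezh2-deleted LSK and 0.95 higher in JAK2V617F than in WT LSK, with a limma adjusted p of 0.222. The adapter Alox5ap differed by 0.13 and 0.16 in the same pairs, beside 3.28 and 3.11 for Alox5.

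Within MEP, 0 of 6 were called by limma and 2 had an unadjusted p under 0.05, Alox5 and Ptgs1, against 0.167% and 7.84% of all genes. Ptgs1 differed by -1.48 between double mutant and Ezh2-deleted MEP and by -0.95 between JAK2V617F and WT MEP. The fitted change was -1.22 ± 0.31 (log2, SE, limma adjusted p = 0.303). In LSK the same pairs differed by 0.75 and -0.26. The difference of the JAK2V617F effect between MEP and LSK was -1.46 for Ptgs1 (limma adjusted p = 0.396). Of the 5 members tested for it, 0 were called and 1 had an unadjusted p under 0.05, against 0% and 11.4% of all genes.

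The summed signal of megakaryocyte and platelet markers was lower with JAK2V617F in MEP, as Ptgs1 was. The 9 markers summed to 121 in double mutant and 140 in JAK2V617F MEP, against 540.3 in Ezh2-deleted and 351 in WT MEP. Between 7 and 9 of the 9 were above background on a MEP array. The platelet chemokine Pf4, which made up 77.2% to 87.9% of the sum in MEP, read 6.70 in double mutant and 6.75 in JAK2V617F MEP, against 8.89 in Ezh2-deleted and 8.13 in WT MEP. In LSK, where Ptgs1 was higher than in MEP, the markers summed to 65.6 to 94.3. Their part in the Ptgs1 values was not tested.

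**Figure D5:**
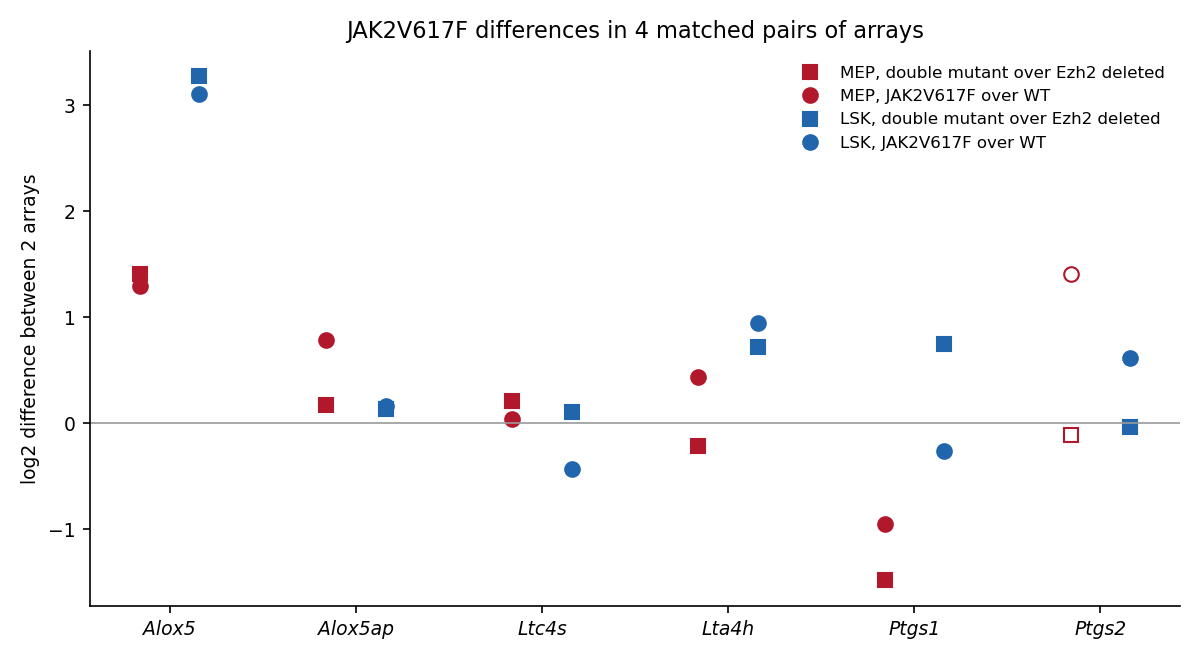
Log2 difference (y) between matched arrays with and without JAK2V617F for the 6 genes tested (x), with MEP in red and LSK in blue, squares for double mutant over Ezh2 deleted and circles for JAK2V617F over WT. Open symbols mark a pair with an array below background. All 4 Alox5 differences are positive, from 1.29 to 3.28, and both Ptgs1 differences in MEP are negative.

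Deletion of Ezh2 gave no call among the members. By limma 0 of 6 were called and 1 had an unadjusted p under 0.05, against 0.698% and 18% of all genes. That was Alox5ap, which differed by -0.45 between double mutant and JAK2V617F LSK, by -0.43 between Ezh2-deleted and WT LSK, and in MEP by -0.73 and -0.12 in the same pairs. Its fitted change was -0.43 (limma adjusted p = 0.262), and the median over all genes was -0.11. Ptgs2 changed by 0.58 (adjusted p = 0.288), Lta4h by -0.46 (0.293), Ltc4s by 0.12, Ptgs1 by -0.05 and Alox5 by 0.01.

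Whether the JAK2V617F effect depended on Ezh2 was tested by an interaction. By limma 0 of 6 members were called and 1 had an unadjusted p under 0.05, against 0% and 3.36% of all genes. That was Ptgs2, at -1.09 (adjusted p = 0.970). The interaction averages both cell types. In LSK Ptgs2 was 2.08-fold higher in Ezh2-deleted than in WT cells and 1.32-fold higher in double mutant than in JAK2V617F cells. In MEP the same pairs differed by 1.20 and -0.32 (log2), but there Ptgs2 was above background on the JAK2V617F array alone.

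Of 76 other genes of the pathway, 74 had a probe and 39 were tested. In MEP 46.2% of them (18) were lower and 17.9% (7) higher than in LSK by limma, against 20.1% and 19.9% of all genes, with a median change of -0.34 against 0.12 over all genes. Of the 18, 7 were above background on 0 MEP arrays (Pla2g7, Ggt5, Ptgds, Slco2a1, Cysltr2, Ptger2 and Ptgir), and of the 7, Pla2g4c was so on 0 LSK arrays. These 8, and Mgst1 with 1 MEP array above background, were tested only through the cell type where they were high. A difference was thus built into their being tested.

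In the Ezh2 and JAK2V617F comparisons and the interaction of both 0 of the 39 were called by limma. An unadjusted p under 0.05 was found for 15.4% of them (6) with Ezh2 deletion, against 18% of all genes, and for 17.9% (7) with JAK2V617F, against 10.8%. Within LSK it was 35.9% (14) against 17.6%, within MEP 12.8% (5) against 7.84%, and for the interaction 5.13% (2) against 3.36%. Whether these shares differ from those of all genes was not tested.

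Among genes that release arachidonic acid or related lipids, 3 of 10 were higher and 3 lower in MEP. Over all genes 19.9% were higher and 20.1% lower. Mgll, the monoacylglycerol lipase, was 18.3-fold higher, Pla2g12a, a secreted phospholipase, 6.05-fold and Pla2g4c at least 4.63-fold. Pla2g4c was tested only through MEP, and Pla2g7, among the 3 lower genes, only through LSK. Pla2g4a, the cytosolic phospholipase that feeds Alox5 and the cyclooxygenases, was 1.49-fold lower (limma adjusted p = 0.0242), at 2.70 to 3.00 in MEP and 3.03 to 3.69 in LSK.

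Of 7 genes tested in the list of leukotriene conversion, transport and breakdown, 5 were lower and 1 higher in MEP, against 20.1% and 19.9% of all genes. The glutathione transferases Mgst1 and Mgst2 were at least 23.4-fold and 15.9-fold lower, and Mgst3 was 2.35-fold higher. Ltb4r1, the leukotriene B4 receptor, was 4.32-fold lower, and Cysltr2, a receptor for cysteinyl leukotrienes, at least 2.54-fold. Mgst1, Ggt5 and Cysltr2 were tested only through the LSK arrays, where they were high.

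On the prostanoid side 4 of 13 synthases and breakdown genes were lower and 3 higher in MEP, against 20.1% and 19.9% of all genes. The prostaglandin D synthase Ptgds was at least 7.44-fold lower and Tbxas1, the thromboxane synthase, 1.88-fold lower, while Ptges2 was 2.06-fold higher. Of 5 prostanoid receptors tested, 4 were lower and 0 higher, against the same shares of all genes. The thromboxane receptor Tbxa2r was 4.17-fold and the prostacyclin receptor Ptgir at least 3.61-fold lower. Ptgds, Slco2a1, Ptger2 and Ptgir, all counted as lower here, were tested only through LSK. Of the other lipoxygenases, 1 of 4 was tested and it was not called (log2 change 0.59).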

How the data were processed

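Expression was measured on 8 one-colour Agilent mouse arrays, 1 for each of 4 genotypes in MEP and LSK, from 20 ng of RNA labelled with Cy3. The deposited scanner files hold intensity values, background-subtracted by Agilent Feature Extraction 10.7.1.1 per the file headers. The authors' deposited value table is a ratio on a linear scale, with column medians of 0.064 to 0.09. On the values it is the processed signal over a factor per array near the 75th percentile, with no centring of genes. All arrays share 1 slide and 1 scan, where row is cell type and column genotype, so position and group cannot be told apart.

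The log2 processed signal was reduced by each array's 75th percentile. Of 55681 probes 27509 matched a RefSeq symbol (GRCm38.p6, used for names and chromosomes). A gene was read from its brightest probe and tested when that was well above background, on 2 or more of 8 arrays. limma 3.58.1 in R 4.3.3 gave an additive fit (cell type, JAK2, Ezh2; 4 pairs an effect), a fit nested in cell type (2 pairs) and an interaction, adjusted by Benjamini-Hochberg over all genes and called under 0.05. "At least" folds use, for a dim array, the weakest signal there that was well above background. The fits were tested on simulated data. Precision is limited by the number of arrays. The p-values measure only the spread between arrays, moderated by limma over all genes tested.

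All 8 members are named, with up to 4 called genes each way per pathway list, markers of other cell types and the 5 genes nearest to Alox5. The members and lists were chosen with earlier results of these data known. Other settings are given in the closing section. Normexp used the median spot signal.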

Additional observations from a re-analysis of the deposited data

Results flagged for a closer look

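Alox5 moved in opposite directions with Ezh2 deletion in the 2 cell types, on every pair of arrays. In LSK it was higher by 0.69 (log2) in double mutant than in JAK2V617F cells and by 0.53 in Ezh2-deleted than in WT cells. In MEP the double mutant minus JAK2V617F difference was -0.54 and the Ezh2-deleted minus WT difference was -0.65. The difference between the cell types was not tested. Each value compares 2 single arrays, and all 4 exceed the scanner's error of 0.20 to 0.21 for such a gap.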

How the results depend on the processing

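No paired analysis was possible because each group has 1 array and all carry replicate number 1. The matched pairs of the fits are arrays that share the other factors, not replicate numbers. Over 9 other settings and 8 left-out arrays, 603 of 656 tested changes of members kept their direction and side of the threshold, and 49 of the 51 described Alox5 changes moved by less than their SE. The filter for genes above background on all arrays left out Ptgs2. The cause of each change below was not tested.

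In MEP against LSK, leaving out each array left 3 to 5 members called, and without a filter 46.1% of the genes tested were called. JAK2V617F within MEP gave 1 called member, Alox5, with normexp, with genes above background on all arrays and with a variance trend. With normexp the Alox5 difference within LSK was 2.68.

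The share of tested genes called for Ezh2 deletion, 0.698% in the reported fit, was 0.243% with quantile normalization, 1.38% with genes above background on all arrays, 0.249% without a filter, 1.43% with a variance trend and 0.0759% with a common floor. For JAK2V617F, 0.326% as reported, it was 0.698% with normexp, 0.205% with quantile normalization, 1.39% with genes above background on all arrays, 0.0862% without a filter, 0.963% with a trend and 0% with a common floor. Within LSK, 0.174% as reported, it was 1.7% with normexp, 0.0455% with quantile normalization, 1.78% with genes above background on all arrays, 1.05% with a trend, and 0% without a filter or with a common floor. Within MEP, 0.167% as reported, it was 0.387% with normexp, 0.908% with genes above background on all arrays, 0.106% with probes averaged, 0.797% with a trend, and 0% without a filter or with a common floor. For the difference of the JAK2V617F effect, where limma called 0 genes with 1509 at an unadjusted p under 0.05, 0.239% were called with genes above background on all arrays. For the interaction of both genotypes, where limma called 0 with 443 unadjusted, 0.0986% were called with normexp, 0.086% with genes above background on all arrays and 0.0379% with a trend.

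Leaving out each array in turn, the share called ran from 0.091% to 0.812% for Ezh2 deletion, 0% to 0.372% for JAK2V617F, 0% to 2.08% for it within LSK, 0% to 2.48% within MEP, 0% to 1.05% for their difference and 0% to 0.167% for the interaction.

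Changes of members that reversed were all uncalled. For Ezh2 deletion, Alox5 was -0.052 with normexp and -0.39 to 0.40 over left-out arrays, and Ptgs1 was 0.032 with quantile normalization and -0.38 to 0.23 over left-out arrays. For JAK2V617F, Ltc4s ran from -0.11 to 0.11. Within LSK, Alox5ap was -0.16 with quantile normalization, and over left-out arrays Ltc4s ran from -0.43 to 0.10, Ptgs1 from -0.26 to 0.75 and Ptgs2 from -0.040 to 0.61. Within MEP, Lta4h ran from -0.22 to 0.44 and Ptgs2 from -0.11 to 1.41. For the difference of the JAK2V617F effect, Ptgs2 was -0.10 with normexp, -0.28 with a common floor and -0.40 to 1.12 over left-out arrays. For the interaction, Alox5 ran from -0.88 to 1.16 and Ptgs1 from -0.56 to 1.03.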
